A study of Mus musculus with 30 samples.

Results

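Mouse iPSCs that had lost 2i/LIF for 24 h and were then re-seeded into serum/LIF for 48 h, with no doxycycline (–dox), were compared with cells left in withdrawal for 72 h, so that both had spent 72 h since leaving 2i/LIF. These conditions are 4 of the 30 RNA samples of the series, 2 replicates in each condition. All the cells were secondary iPSCs that carry the OSKM transgenes (Oct4, Sox2, Klf4 and cMyc) under doxycycline control, a constitutive nuclear RFP, and GFP in place of one Nanog allele, and neither condition received doxycycline. The cells were grown in serum/LIF on CF1 feeder fibroblasts, moved to 2i/LIF (the Gsk3 inhibitor CHIR99021, the Mek inhibitor PD0325901 and LIF), plated on gelatin, and differentiated by removing 2i and LIF in serum-free N2B27 medium. The withdrawal cells stayed in N2B27, whereas the returned cells were collected at 24 h and re-seeded as single cells in medium with serum and LIF. Serum, LIF, the change of basal medium and the passage therefore changed together and cannot be told apart, and the colony assay re-seeded such cells on CF1 feeders, but whether the cells collected for RNA had feeders is not given in the sources used here.

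The deposited table gives 1 FPKM value (fragments per kilobase of transcript scaled to library size) for each gene and condition, made by combining the 2 replicates. The spread between replicates is therefore unknown for every value below, no test could be run, and the differences are described by their size. Of 22477 genes, 12785 reached 1 FPKM in the returned cells or at 72 h and were compared. A gene is called at least 2-fold apart when the plain ratio of its 2 values reached 2 and the higher value reached 1 FPKM. Read numbers are unknown, but the smallest values above 0, multiplied by gene length over 1380 long genes, showed that the returned column resolved finer steps. For a 2 kb gene, 1 FPKM equalled 93.6 of these steps in the returned cells and 32.2 at 72 h, and 2756 genes were listed at 0 in the returned cells against 4494 at 72 h. The part of this difference in the calls was not tested. Both columns were on the same scale, with median-ratio factors of 1.01 each. Pou5f1, the gene for Oct4, stood at 213 FPKM in the returned cells and at 123 FPKM at 72 h, and Utf1 at 478 and 448 FPKM. Both pluripotency genes were thus expressed in both conditions. Other pluripotency genes, given below, were much lower at 72 h than in the returned cells. Pou5f1 and Utf1 alone therefore do not settle the state of the 72 h cells.

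In culture, mouse pluripotent cells can be held in a naive state, in which transcription factors such as Nanog, Esrrb, Klf2, Klf4, Tfcp2l1 and Tbx3 keep one another expressed. LIF binds the Lifr and gp130 (Il6st) receptors and activates Stat3, which drives several of these factors, while 2i lowers Erk signalling and raises beta-catenin. When both are removed the cells pass through a formative state, marked by Fgf5, Otx2, Pou3f1 and the de novo DNA methyltransferases, before they commit to a lineage. Serum brings BMP-like activity, which acts through the Id genes, and lipoproteins, from which cells take up cholesterol.

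In the returned cells 691 genes were at least 2-fold higher than at 72 h, 5.4% of those compared, and 625 were at least 2-fold lower, 4.89% of those compared. Together these made 10.3% of the genes. At 4-fold the split was less even, with 199 genes higher (1.56%) and 94 lower (0.735%), and at 8-fold 79 were higher (0.618%) and 29 lower (0.227%). The share of genes called depended on level. It was 27.7% among genes whose higher value lay between 1 and 2 FPKM and 5.16% among genes that reached 50 FPKM, so weakly expressed genes held more than their share of the calls. Of the 691 higher genes, 302 were under 1 FPKM at 72 h and 26 were listed at 0 there. Among the 625 lower genes, 233 were under 1 FPKM in the returned cells and 6 were listed at 0. For a gene that reached 1 FPKM in one condition alone, the minimum helped to set the call. The median log2 ratio of all genes compared was -0.0021, which is the value against which the list medians below are to be read.

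**Figure D1:**
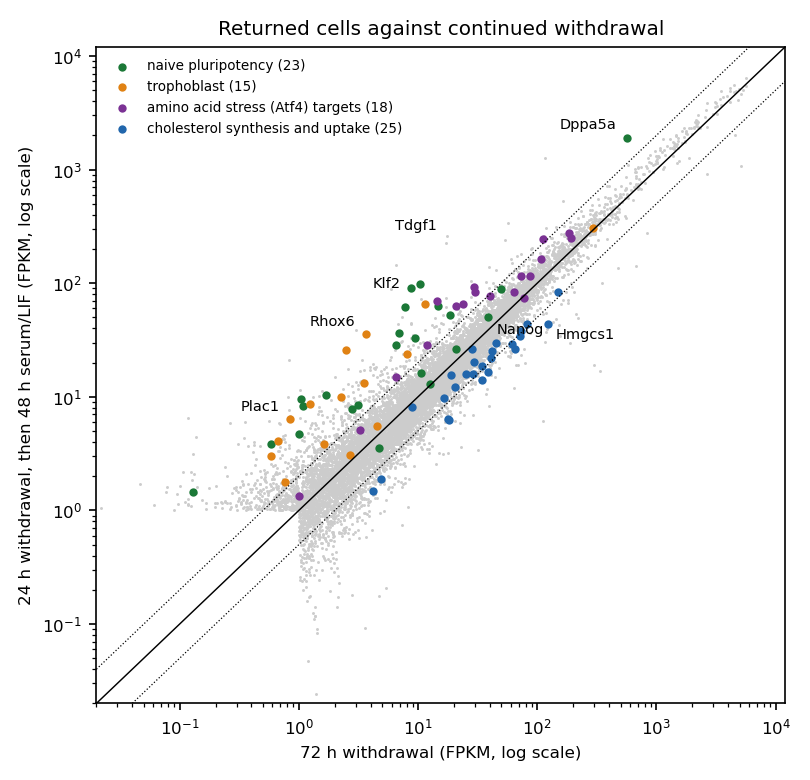
FPKM of each compared gene after 24 h of withdrawal and 48 h of serum/LIF (vertical, log scale) against 72 h of withdrawal (horizontal, log scale), with 4 gene lists in colour and genes listed at 0 in either column not drawn. The solid line marks equal values and the dotted lines 2-fold. Naive pluripotency genes such as Klf2 and trophoblast-list genes such as Rhox6 lie above the lines and cholesterol genes such as Hmgcs1 below, while Nanog lies inside them.

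Most naive pluripotency genes were higher in the returned cells. Of 25 listed genes 23 were compared and 17 were at least 2-fold higher, where 5.4% of all compared genes were, with none lower and a median log2 ratio of 2.10. The 2 not compared, Spic and Trpm1, were under 1 FPKM in both conditions. Klf2, a Kruppel-like factor of the naive network (GRCm38 chr8:72319033-72321656), was at 90.9 FPKM in the returned cells and 8.67 FPKM at 72 h, a 10.5-fold difference. At the 24 h time point, from which both conditions came, it was at 69.5 FPKM, so its level in the returned cells lay near that start and the 72 h level lay far under it. Klf5 stood at 61.8 against 7.76 FPKM, and Klf4, a direct target of Stat3, at 10.4 against 1.69 FPKM.

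Esrrb, an orphan nuclear receptor that can stand in for Nanog in self-renewal, was at 33.2 FPKM in the returned cells and 9.44 FPKM at 72 h, a 3.52-fold difference. Zfp42, the gene for the naive marker Rex1, was at 62.9 and 14.6 FPKM. Nr0b1, which encodes the Oct4 partner Dax1, was at 8.37 and 1.08 FPKM. Unlike Klf2, these genes were below their 24 h level also in the returned cells. At 24 h Zfp42 stood at 192 FPKM and Nr0b1 at 101 FPKM. Tdh, the threonine dehydrogenase that feeds one-carbon metabolism in mouse pluripotent cells, was at 140.4 FPKM at 24 h, 36.5 FPKM in the returned cells and 6.94 FPKM at 72 h. Weaker members of the list followed, with Prdm14, which represses Fgf receptor signalling and DNA methyltransferases, at 1.45 FPKM against 0.130, and Nr5a2, a nuclear receptor that binds the Pou5f1 gene, at 3.84 against 0.578 FPKM. Dppa3, also called Stella, was higher after the return than at the start of both arms, at 28.8 FPKM against 13.6 at 24 h and 6.58 at 72 h.

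Nanog itself differed by less than 2-fold. It was at 50.1 FPKM in the returned cells and 38.9 FPKM at 72 h, a 1.29-fold difference, and at 46.5 FPKM at 24 h. During withdrawal it stood at 9.18 FPKM after 36 h, 6.45 after 48 h and 21.7 after 60 h, so the 72 h level lay above the 3 time points before it. GFP replaces one Nanog allele in these cells, and how far reads from that allele enter the Nanog value was not tested. Fgf4, Gbx2, Eras, Zfp57 and Manba were the other compared members within 2-fold. Manba was the single compared gene of the list with a lower value in the returned cells, at 3.57 against 4.66 FPKM.

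**Figure D2:**
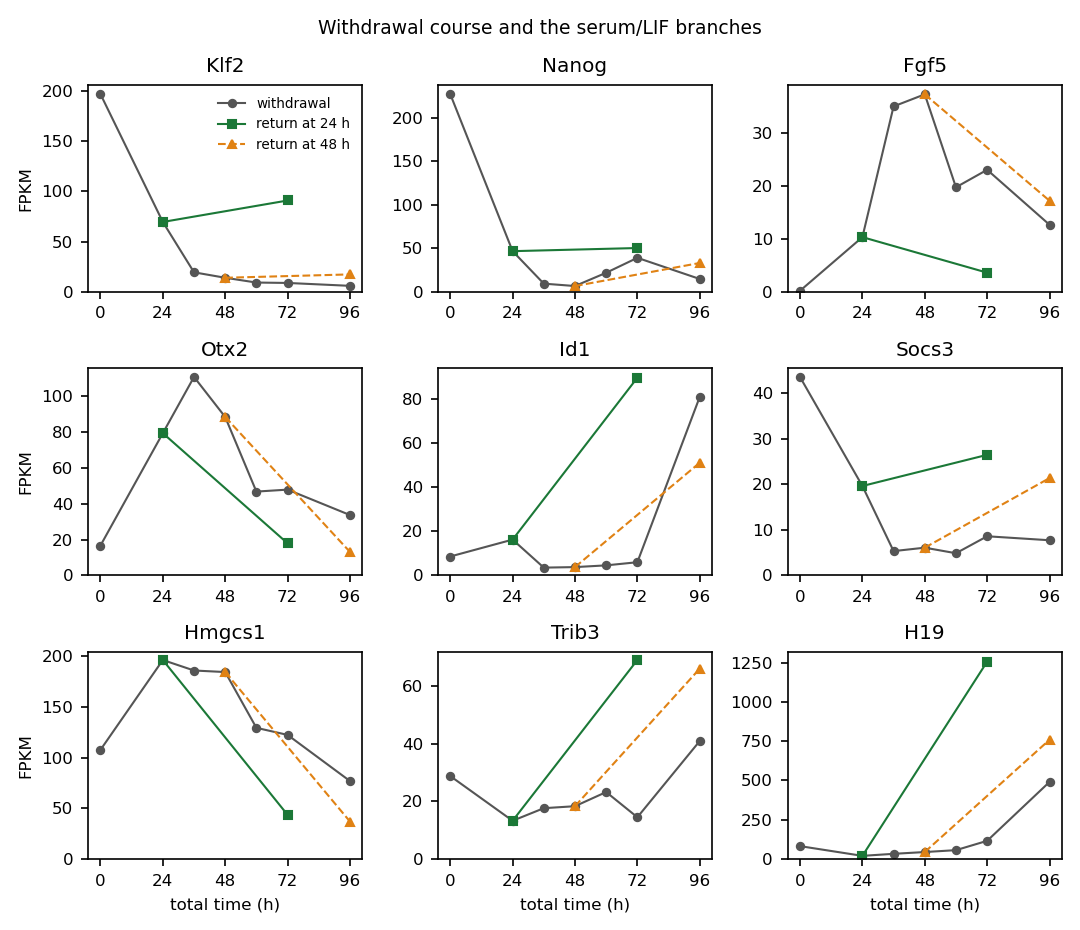
FPKM (vertical) of 9 genes against total time since 2i/LIF removal (horizontal, h), for the withdrawal course (grey circles), the 24 h return (green squares) and the 48 h return (orange triangles), 1 combined value per condition and no error bars. Lines join the cells before and after 48 h in serum/LIF. Klf2, Socs3 and Id1 are higher in the returned cells than at 72 h, Fgf5, Otx2 and Hmgcs1 lower, and Nanog is close in both.

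Of the 14 core pluripotency genes, all compared, 6 were at least 2-fold higher in the returned cells and none lower, where 5.4% of all compared genes were higher and 4.89% lower, with a median log2 ratio of 0.67. Tdgf1, the gene for the Nodal co-receptor Cripto (GRCm38 chr9:110939603-110946158), showed one of the largest ratios of any gene over 10 FPKM. It stood at 258 FPKM in the returned cells and 17.6 FPKM at 72 h, 14.6-fold apart, and at 166 FPKM at 24 h. Sox2, the partner of Oct4, was at 103 against 36.9 FPKM. Pou5f1 was 1.74-fold higher, short of 2-fold. L1td1, an RNA-binding protein, and Dppa2 were also at least 2-fold higher, L1td1 at 315 against 143 FPKM and Dppa2 at 39.1 against 11.3 FPKM. Reads from the transgenes, if any, cannot be separated from those of the endogenous Pou5f1, Sox2, Klf4 and Myc genes in a table of gene values.

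LIF receptor and Stat3 target genes were listed because LIF was given back, together with serum, and the part of LIF alone was not tested. Of 26 listed genes 23 were compared, 10 were at least 2-fold higher in the returned cells and 1 was lower, beside 5.4% and 4.89% of all compared genes, with a median log2 ratio of 0.87. Socs3, the feedback inhibitor that Stat3 induces (GRCm38 chr11:117966079-117970047), was at 26.4 FPKM in the returned cells, 8.58 FPKM at 72 h and 19.6 FPKM at 24 h. Stat3 was at 21 against 8.41 FPKM. Bcl3, an IkB-family co-regulator, was at 30.7 against 7.37 FPKM, and Icam1, an adhesion molecule, at 20.7 against 7.90 FPKM. Klf4, Klf5, Tfcp2l1 and Gbx2 belong to this list and to the naive list, so the counts of the lists overlap. The receptor subunits differed less, Lifr at 3.23 against 1.72 FPKM and Il6st at 10.6 against 9.39 FPKM. Jak2, a kinase of the pathway, was the lower member, at 2.01 against 5.62 FPKM, whereas Jak1 was at 13.6 and 14.4 FPKM. Pim1 and Junb, which other signals also induce, were 1.53-fold and 1.84-fold higher, both under 2-fold.

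The Socs3 promoter is shown because Socs3 is the best known direct Stat3 target of the list. The window is the 250 bases before the RefSeq start site on GRCm38.p6, chr11:117969367-117969616, minus strand, written 5′ to 3′, and the capitals mark a match to TTCNNNGAA, the palindromic Stat motif, 154 bases before the start.
Socs3: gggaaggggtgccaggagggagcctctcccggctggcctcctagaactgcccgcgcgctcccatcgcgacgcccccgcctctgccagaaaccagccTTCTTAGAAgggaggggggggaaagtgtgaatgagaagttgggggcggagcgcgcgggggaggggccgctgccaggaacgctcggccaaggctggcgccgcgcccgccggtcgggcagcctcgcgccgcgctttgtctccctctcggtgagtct
TTCNNNGAA was searched on both strands, and TTCCNGGAA, which is a special case of it, was counted too. The broader motif was in 7.02% of 32851 RefSeq promoter windows of this length and in 3 of the 23 list members with a window (13.0%), namely Socs3, Sbno2 and Icam1. TTCCNGGAA was in 0.913% of all the windows and in 2 of the 23 list members (8.7%), Sbno2 and Icam1. A list member was counted if any of its windows matched, whereas the shares of all windows count each window. The list shares are therefore not on the same footing as those of all windows. Among the list members at least 2-fold apart 9 had a window, of which 2 held the broader motif and 1 held TTCCNGGAA. The main coding transcript of Socs3 in Gencode starts downstream of the RefSeq start, so the bases just before that start lie outside the window. The window itself lies inside the Gencode limits of the gene given above. These are matches of letters within one window and describe the sequence alone.

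Formative genes were split. Of 24 listed genes 23 were compared, of which 4 were at least 2-fold higher in the returned cells and 7 were lower, beside 5.4% and 4.89% of all compared genes, with a median log2 ratio of -0.19. The lower genes were Fgf5, Otx2, Zic2, Sox3, Sox4, Sall2 and Tet3. Fgf5, the ligand that marks the post-implantation epiblast (GRCm38 chr5:98254184-98277030), was at 3.59 FPKM in the returned cells and 23.1 FPKM at 72 h, 6.42-fold apart, and at 10.3 FPKM at 24 h, so that the returned value lay under the start and the 72 h value over it. Otx2, the homeobox factor that redirects Oct4 at enhancers during naive exit, was at 17.9 FPKM in the returned cells and 47.8 at 72 h, and the 24 h level of 79.3 FPKM lay above both. Zic2 was at 26.5 against 78.1 FPKM and Sox3 at 7.02 against 18.7 FPKM.

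The 4 higher members were Dnmt3l, Foxd3, Etv4 and Pim2. Against 60 h of withdrawal in place of 72 h, the log2 ratio was 0.66 for Etv4 and -0.33 for Pim2, and the median of the list -0.74. Dnmt3l, the cofactor of the de novo DNA methyltransferases, was at 241 FPKM in the returned cells and 53.9 at 72 h, while the enzymes stayed within 2-fold, Dnmt3a at 75 against 73.6 FPKM and Dnmt3b at 195 against 201 FPKM. Dnmt3l had its highest level of these at 24 h, 542 FPKM. Across the 16 genes of DNA methylation and demethylation, Dnmt3l was the one higher and Tet3 the one lower, near the 5.4% and 4.89% of all compared genes, with a median of 0.00. Foxd3, a forkhead factor needed to leave the naive state, was at 8.06 against 1.47 FPKM. Pou3f1, the gene for Oct6, was at 26.8 against 44 FPKM, under 2-fold. Dnmt3b and Pou3f1 were thus within 2-fold of their 72 h level in the returned cells, whereas Fgf5 and Otx2 were not. Against 96 h of withdrawal the log2 ratio was -0.91 for Otx2 and -0.87 for Zic2, both under 2-fold, and -1.82 for Fgf5.

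**Figure D3:**
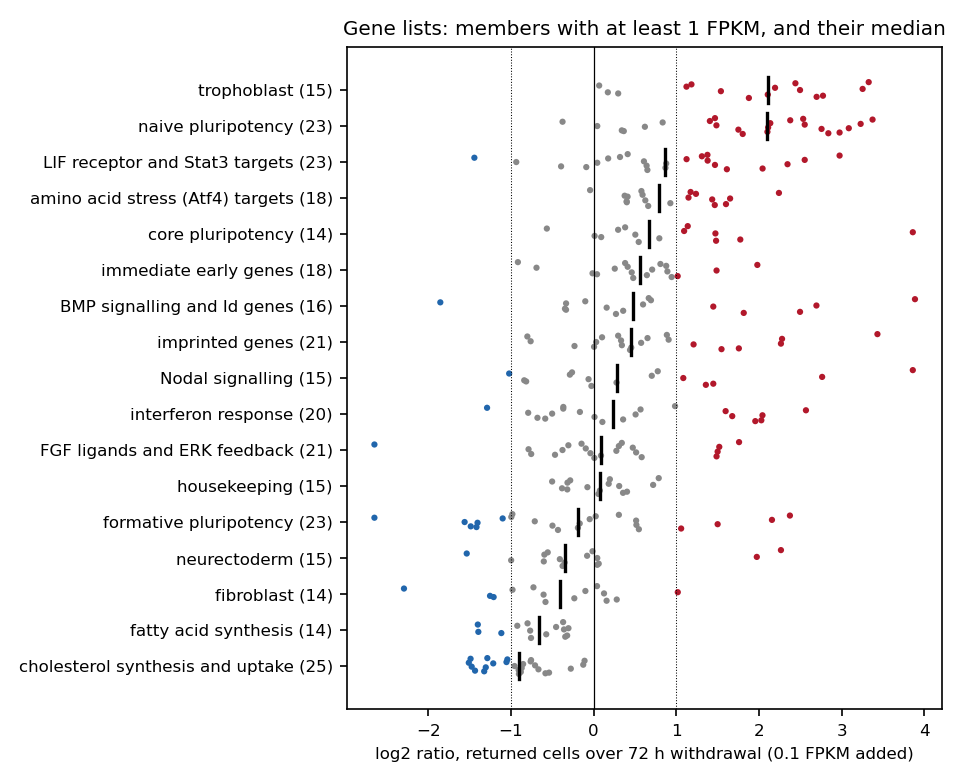
Log2 ratio of returned cells over 72 h of withdrawal (horizontal, 0.1 FPKM added to both values) for each compared member of 17 gene lists, with the number of members in parentheses and the median as a black bar. Red points are at least 2-fold higher and blue points at least 2-fold lower with 0.1 FPKM added. The calls in the text use the plain ratio, so a weak gene just past 2-fold can be drawn grey. The medians run from 2.11 for the trophoblast list to -0.90 for cholesterol synthesis and uptake, with housekeeping genes at 0.08.

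Genes of the BMP and Nodal pathways, both members of the TGF-beta family, gave some of the largest ratios. Id1, a helix-loop-helix inhibitor that BMP signalling induces (GRCm38 chr2:152736251-152737410), was at 89.7 FPKM in the returned cells against 5.96 FPKM at 72 h, 15-fold apart. The 24 h cells had 16.2 FPKM. Id2 was at 65.6 against 11.5 FPKM, and Id3 at 48.9 against 13.8 FPKM, whereas Id4 was at 1.01 against 0.634 FPKM. Smad7, an inhibitory Smad, was at 18 against 6.54 FPKM and Smad6 at 4.03 against 3.60 FPKM. The list of BMP signalling genes had 16 of 21 members compared, of which 5 were at least 2-fold higher, where 5.4% of all compared genes were, and 1 was lower, near the 4.89% of all. Against 96 h of withdrawal in place of 72 h, its median log2 ratio was -0.51 in place of 0.48. The log2 ratio was then 0.15 for Id1, 0.75 for Id2 and -1.33 for Id3. The ligand genes did not share the Id pattern. Bmp7 was the lower member at 1.82 against 6.85 FPKM, and Bmp4 was at 1.21 against 0.918 FPKM. Msx2, the remaining higher member, reached 1.43 against 0.136 FPKM.

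Of 15 Nodal-pathway genes compared, 5 were at least 2-fold higher and 1 was lower, and of all compared genes 5.4% were higher and 4.89% lower. The higher ones were Lefty1, Lefty2, Tdgf1, Smad7 and Gdf3. Lefty2, a secreted Nodal inhibitor and target, was at 50.3 FPKM in the returned cells and 7.32 FPKM at 72 h. Its paralog Lefty1 was at 306 and 119 FPKM, both far above the 24 h value of 9.40 FPKM, so this gene was high in both conditions and higher in the returned cells. Because the Lefty genes are close paralogs, how reads were divided between them is uncertain. Gdf3 was at 46.1 against 21.6 FPKM, and Smad3, the lower one, at 5.53 against 11.3 FPKM. Among 21 FGF ligands and ERK feedback genes, 4 were higher (Spry4, Etv1, Etv4 and Myc), above the 5.4% of all genes, and Fgf5 alone was lower, near the 4.89% of all. Spry4, an inhibitor that ERK induces, was at 17.7 against 5.16 FPKM. Etv4, an Ets factor downstream of FGF, was at 29.8 against 10.5 FPKM, and Myc at 44.3 against 15.7 FPKM. Of 16 compared Wnt targets 1 was higher and 1 lower, shares near those of all genes, with Fzd7, a Wnt receptor, at 27.4 against 57.5 FPKM and Sp5, an Sp-family factor and direct Wnt target, at 1.16 against 0.227 FPKM.

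The trophoblast list had as high a median as the naive list. Of 19 listed genes 18 were in the table and 15 were compared, 12 were at least 2-fold higher in the returned cells and none lower, where 5.4% of all compared genes were higher, and the median log2 ratio was 2.11. Several members were weakly expressed, in a range where more of all genes were called, 16.8% between 2 and 5 FPKM, and the median was 1.61 with 1 FPKM added and 1.71 with no minimum. Rhox6 (GRCm38 chrX:37826910-37829857), a homeobox gene of the X-linked reproductive cluster, was at 35.5 FPKM against 3.63 FPKM at 72 h, 9.78-fold apart. Its neighbour Rhox9 was at 26.1 against 2.50 FPKM, and as members of one gene family their reads could be shared. Plac1, a placental gene on the X chromosome, was at 6.38 against 0.847 FPKM, Krt7, a simple-epithelium keratin, at 13.2 against 3.51 FPKM, and Esx1, a placental homeobox gene, at 10.0 against 2.25 FPKM.

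Among factors of the trophoblast lineage, Cdx2 stood at 0.259 FPKM in the returned cells and 0.0575 FPKM at 72 h, and Elf5 at 0.179 and 0.0293 FPKM, all under 1 FPKM and so not compared. Tfap2c, which pluripotent and germ cells also express, was 2.93-fold higher at 23.6 against 8.05 FPKM, Gata2 6.10-fold higher at 4.07 against 0.668 FPKM, and Gata3 at 3.06 against 2.70 FPKM. Ascl2, a helix-loop-helix factor of the placenta, was 6.94-fold higher, at 8.57 FPKM in the returned cells and 1.24 at 72 h, but at 9.79 FPKM already at 24 h. Summed over the 18 genes the list amounted to 520.3 FPKM in the returned cells and 339.5 FPKM at 72 h, but to 722.3 FPKM at 24 h, 539.1 FPKM in the 24 h return with doxycycline and 521.1 FPKM in iPSCs in 2i/LIF. In the returned cells and at 72 h most of this was Rhox5, which is also active in pluripotent cells, at 309 and 295 FPKM. In RNA of whole cultures, a larger share of cells with such transcripts and more transcript per cell cannot be told apart.

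Plac1 and Rhox6 were lower in 2 other groups of re-seeded cells. Undifferentiated iPSCs that spent 48 h in serum/LIF with no doxycycline had 0.325 FPKM of Plac1 and 13.4 of Rhox6, although Hand1, a factor of trophoblast giant cells, was not lower there, at 3.98 against 3.04 FPKM in the returned cells. Cells returned at 24 h with doxycycline (+dox), and so with OSKM, had 0.568 FPKM of Plac1, 10.9 of Rhox6 and 3.32 of Krt7. Cells re-seeded without doxycycline after 96 h of withdrawal had far more, 103 FPKM of Plac1 and 379 of Rhox6, with Cdx2 at 1.27 and Elf5 at 3.44 FPKM. Rhox6 was at 33.6 FPKM in undifferentiated iPSCs re-seeded with doxycycline, near the 35.5 FPKM of the returned cells. It was at 11 FPKM in the 48 h return, at 8.76 in that return with doxycycline, and at 118 in the 96 h return with doxycycline.

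**Figure D4:**
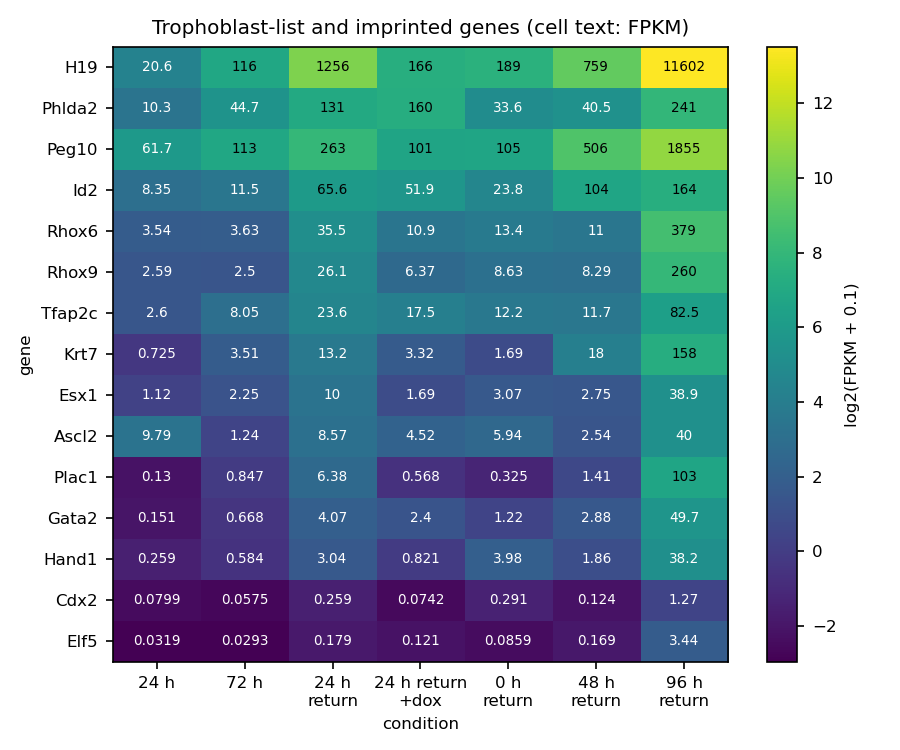
FPKM (printed in each cell, colour on a log2 scale with 0.1 added) of trophoblast-list and imprinted genes in 7 conditions. Rhox6, Rhox9, Plac1 and H19 are higher in the 24 h return than at 24 h, at 72 h, in the 24 h return with doxycycline and in re-seeded undifferentiated cells, all are highest in the 96 h return, and Cdx2 and Elf5 are under 1 FPKM everywhere else.

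Of 26 imprinted genes 21 were compared, 6 were at least 2-fold higher in the returned cells, none was lower and 15 were within 2-fold, with a median log2 ratio of 0.46. Of all compared genes 5.4% were higher and 4.89% lower. H19, a noncoding RNA expressed from the maternal allele (GRCm38 chr7:142575529-142578143), was at 1256 FPKM in the returned cells, 116 FPKM at 72 h and 20.6 FPKM at 24 h. Igf2, its paternally expressed neighbour, was at 18.3 against 5.35 FPKM. Cdkn1c, a cell cycle inhibitor, was at 17.3 against 3.49 FPKM, and Phlda2, which limits placental growth, at 131 against 44.7 FPKM. The remaining higher members were Dlk1, at 11.7 against 2.36 FPKM, and Peg10, at 263 against 113 FPKM. Other imprinted transcripts at the Dlk1 locus were closer, with Meg3 at 347 against 187 FPKM and Rian at 494 against 483 FPKM. Against 96 h of withdrawal the log2 ratio was 0.13 for Igf2 and 0.12 for Peg10, both under 2-fold. H19, Cdkn1c, Phlda2 and Dlk1 stayed past 2-fold there.

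All 25 listed genes of cholesterol synthesis and uptake were compared, 10 were at least 2-fold lower in the returned cells and none was higher, where 4.89% of all compared genes were lower, and the median log2 ratio was -0.90. Their sum was 564.4 FPKM in the returned cells and 1081 FPKM at 72 h. Hmgcs1, the synthase at the start of the mevalonate pathway (GRCm38 chr13:119690379-119708260), was at 43.6 FPKM in the returned cells, 122 FPKM at 72 h and 196 FPKM at 24 h. Idi1, an isomerase of the pathway, was at 16.7 against 38.8 FPKM and Lss, which closes the sterol rings, at 6.27 against 18 FPKM. Insig1, which holds the SREBP precursor in the endoplasmic reticulum, was at 29.3 against 60.8 FPKM, and Stard4, a sterol carrier, at 6.36 against 17.8 FPKM. Srebf2, the gene for the factor that drives the pathway, was at 43.4 against 81.3 FPKM, 1.88-fold lower.

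The levels in the returned cells were close to those of undifferentiated iPSCs re-seeded in serum/LIF, which had 37.7 FPKM of Hmgcs1, 13.2 of Idi1 and 24.6 of Insig1. The sum of the list was 562.2 FPKM in those cells and 647.7 FPKM in the 24 h return with doxycycline, against 1486 FPKM in the 24 h cells and 1012 FPKM in iPSCs in 2i/LIF. These conditions differ in serum, LIF, basal medium and re-seeding together, and the part of each was not tested. Of 14 fatty acid synthesis genes 3 were at least 2-fold lower, none was higher and 11 were within 2-fold, where 4.89% of all compared genes were lower and 5.4% higher, with a median of -0.66. The lower genes were Scd1, the delta-9 desaturase, at 8.49 against 22.6 FPKM, Fads2, the delta-6 desaturase, at 22.6 against 59.6 FPKM, and Me1, malic enzyme, at 8.79 against 19.2 FPKM.

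The Hmgcs1 promoter is shown because it was the one window among the lower genes of the list that held the motif searched. It covers the 250 bases before the RefSeq start site on GRCm38.p6, chr13:119690101-119690350, plus strand, written 5′ to 3′, with capitals for a match to TCACNCCAC, a sterol response element, 137 bases before the start.
Hmgcs1: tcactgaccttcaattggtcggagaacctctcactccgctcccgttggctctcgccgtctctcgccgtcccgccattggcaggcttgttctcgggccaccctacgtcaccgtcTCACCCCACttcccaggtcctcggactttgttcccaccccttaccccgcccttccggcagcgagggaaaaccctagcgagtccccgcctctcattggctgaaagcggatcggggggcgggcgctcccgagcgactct
This motif, searched on both strands, was in 1.05% of the 32851 windows and in 1 of the 17 list members that had one (5.88%). Here too the first share counts windows and the second counts genes with any matching window. Of the 10 genes at least 2-fold lower 6 had a window, and 1 of these held the letters.

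The Atf4 response is switched on by amino acid shortage and other stress on translation. All 18 of its listed genes were compared, 8 were at least 2-fold higher in the returned cells, none was lower and 10 were within 2-fold, where 5.4% of all compared genes were higher and 4.89% lower, and the median log2 ratio was 0.80. Against 96 h of withdrawal the median was 0.39, and of the 8 genes Ddit3 and Nupr1 alone were still past 2-fold. Trib3, a pseudokinase that feeds back on Atf4, was at 69.1 FPKM against 14.5 at 72 h and 13.3 at 24 h. Chac1, which degrades glutathione, was at 93.1 against 29.5 FPKM, Ddit3, the gene for Chop, at 83.7 against 30.2 FPKM, Nupr1, a stress-induced chromatin protein, at 63 against 20.7 FPKM, and Atf4 itself at 247 against 111 FPKM. Asns, asparagine synthetase, and Slc7a5, an amino acid transporter, were 1.51-fold and 1.58-fold higher, under 2-fold. Slc2a1, the gene for the glucose transporter Glut1, was lower in the returned cells, at 71.7 against 181 FPKM, the one of 20 glycolysis and glucose transport genes that was 2-fold apart. The glycolytic enzymes of that list were all within 2-fold, with Ldha at 679.9 against 451 FPKM and Pgk1 at 273 against 158 FPKM, and the median of the list was 0.29.

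Of 30 neurectoderm genes 15 were compared, with 2 at least 2-fold lower and 2 higher in the returned cells and a sum over the list of 99.3 against 100.7 FPKM. Over all compared genes 4.89% were lower and 5.4% higher, and 3 of these 4 members had their higher value between 2 and 5 FPKM, where 16.8% of all genes were called. The lower ones were Sox1, the earliest neural marker, at 1.37 FPKM in the returned cells and 4.16 FPKM at 72 h, and Irx3, a homeobox gene, at 1.34 and 2.77 FPKM. The higher ones were Olig2, a helix-loop-helix factor of neural progenitors, at 3.53 and 0.823 FPKM, and Dlk1, which is also imprinted and given above. Pax6 was at 1.82 and 2.81 FPKM and Nes, which encodes nestin, at 18 and 23 FPKM, both within 2-fold. Of 24 primitive streak genes 6 reached 1 FPKM in either condition and 5 of these were at least 2-fold higher in the returned cells, but Eomes, Sp5 and Hand1 reached 1 FPKM there alone, so the minimum helped to set this count. With no minimum the median log2 ratio of the list fell from 1.17 to 0.60, and at these levels many genes of the whole table were called, 27.7% of those whose higher value lay between 1 and 2 FPKM. The highest of the 5 was Fst, a secreted activin inhibitor, at 4.02 against 1.68 FPKM. T stood at 0.907 against 0.531 FPKM and Mixl1 at 0.401 against 0.263 FPKM, both under 1. None of 12 compared extraembryonic endoderm genes was higher and 1 was lower, with a sum over the list of 267.9 against 266.0 FPKM, and 1 Hox gene of 23 was compared. Of 14 compared retinoic acid genes 3 were lower (4.89% of all compared genes), with Dhrs3, a retinaldehyde reductase, at 3.23 against 12.4 FPKM. Among 19 germline genes 7 were higher and none lower, beside 5.4% and 4.89% of all compared genes, among them Tdrd12, a piRNA factor, at 54.7 against 22.2 FPKM. Of 16 listed genes of the 2-cell stage 12 were in the table, and their sum was 7.41 FPKM in the returned cells, 0.467 FPKM at 72 h and 0.415 FPKM at 24 h. Only 2 were compared, both higher in the returned cells and both reaching 1 FPKM there alone, Zscan4d at 1.17 FPKM and Zscan4f at 1.44 FPKM in the returned cells, with Zscan4d listed at 0 and Zscan4f at 0.0763 FPKM at 72 h, and as near-identical copies they could share reads.

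The counts of the next lists are to be read against the 5.4% of all compared genes that were higher and the 4.89% that were lower, and single members called in a list of about 20 are near those shares. Of 21 epithelial genes 1 was higher and 3 were lower, with the adhesion genes Cdh1 at 134 against 193 FPKM and Epcam at 175 against 182 FPKM. The lower ones were Cldn3 and Marveld2, both of tight junctions, and Rab25, a trafficking protein of epithelia. Of 23 contractile, Yap and SRF target genes 4 were higher and 1 lower, with Tagln at 103 against 81.7 FPKM. Among 18 immediate early genes 3 were higher and none lower, with a median of 0.56. These were Egr1, Nr4a1 and Myc, with Egr1 at 25.8 against 6.46 FPKM. Interferon-response genes had 6 higher and 1 lower of 20 compared and a median of 0.23, with Ifitm1, a membrane protein that pluripotent cells express, at 336 against 56.5 FPKM and Gbp2, a guanylate-binding protein, at 13.8 against 3.31 FPKM. Of 19 compared G1 cyclins and cell cycle inhibitors 4 were higher and 1 lower, with a median of -0.09. The higher ones were Cdkn1c and Myc, given above, Ccnd3, a D-type cyclin, at 95 against 43.9 FPKM, and Mycn at 68.7 against 30.2 FPKM. The lower one was Rb1, the retinoblastoma gene, at 8.07 against 17.2 FPKM. Of 19 p53 targets 1 was higher and 1 lower. None of the 15 housekeeping genes was 2-fold apart.

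Since the cells had been kept on feeders, fibroblast genes were counted for both conditions. Of 24 genes 14 were compared, 1 was at least 2-fold higher in the returned cells and 4 were lower, beside 5.4% and 4.89% of all compared genes, with a median log2 ratio of -0.41. The 4 lower genes all had their higher value between 1 and 5 FPKM, where 27.7% (under 2 FPKM) and 16.8% (from 2 FPKM) of all genes were called. The sum of the list was 251.0 FPKM in the returned cells, 214.8 FPKM at 72 h, 465.8 in the 24 h cells and 1899 in the iPSCs in 2i/LIF. Sparc, which many cells make, was the most abundant, at 127 and 116 FPKM. The collagen gene Col1a1 was at 1.54 against 3.14 FPKM, Dcn, a proteoglycan of fibroblasts, at 0.571 against 3.19 FPKM, and Fap was listed at 0 in both. The higher member was Fn1, fibronectin, at 76.3 against 37.6 FPKM. Col1a2 was at 1.23 against 2.96 FPKM and Postn, a matrix protein, at 0.386 against 1.06 FPKM, so these 4 matrix genes stood far under Sparc and Fn1 in both conditions. Their part in the other differences was not tested. Of the 3 endothelial or blood genes compared, Pecam1, an adhesion molecule that naive pluripotent cells also express, was at 17.4 against 4.34 FPKM, Tek at 2.11 against 0.520 FPKM and Cd68 at 15.6 against 11.7 FPKM.

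Ranking all genes over 10 FPKM by ratio led partly to the same genes and partly to others. The 15 largest ratios held Id1, Tdgf1, H19, Klf2, Rhox9, Rhox6, Mylpf and Klf5 of the lists above. It also held Ephx2, soluble epoxide hydrolase, at 38.5 against 3.04 FPKM, Cpsf4l, a relative of a polyadenylation factor, at 11.5 against 1.03 FPKM, Aire, the thymic autoimmune regulator, at 15.1 against 1.99 FPKM, and Calcoco2, an autophagy receptor, at 11.2 against 1.56 FPKM. The last 4 were all above the 72 h level also at 24 h, with Ephx2 at 32.8 FPKM and Calcoco2 at 44.2 FPKM. The 3 predicted genes Gm10800, Gm10801 and Gm26870 completed the group. Gm10800 stood at 225 against 17.1 FPKM and Gm10801, its neighbour on chromosome 2, at 21 against 0.832 FPKM, while Gm26870 was at 144 against 6.59 FPKM. All 3 had their second highest value of the table at 36 h, of 131, 10.6 and 69.3 FPKM, and as predicted genes with similar courses their values are uncertain.

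The 15 smallest ratios held 8 replication-dependent histone genes, whose transcripts largely lack poly(A) tails. Poly(A) selection can capture such transcripts unevenly, and its part in these values was not tested. Hist1h2ab was lowest, at 16.9 FPKM in the returned cells and 334 FPKM at 72 h. Over the 66 genes of the histone clusters, a list added after their values were seen, 60 were compared, 44 were at least 2-fold lower and 1 was higher, where 4.89% and 5.4% of all compared genes were, and the sum was 5072 FPKM against 12333 FPKM. The 72 h value was the highest sum of the 15 conditions. The cells at 24 h had 5359 FPKM and those at 96 h had 9649 FPKM. Undifferentiated iPSCs re-seeded in serum/LIF had 3987 FPKM and the 24 h return with doxycycline 3224 FPKM. After return at 48 h the sum was 7695 FPKM. In that contrast with 96 h, 58 histone genes were compared, of which 4 were at least 2-fold lower and 5 higher. Of all genes compared there, 6.51% were lower and 6.36% higher. Without the histone cluster genes, 690 genes were higher and 581 lower in the 24 h return than at 72 h. The other genes with the smallest ratios were Fgf5, Cxcl12, a chemokine, at 3.39 against 31.9 FPKM, Wt1, a zinc finger factor, at 2.55 against 14.2 FPKM, Ramp2, a receptor co-factor, at 3.11 against 16.3 FPKM, Prickle1, a planar polarity protein, at 3.22 against 14.9 FPKM, Trp53i11 at 8.30 against 39.3 FPKM, and Yam1 at 1072 against 5131 FPKM. Cxcl12 and Wt1 were also low at 24 h, at 2.21 and 4.82 FPKM.

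By difference in FPKM in place of ratio, the 10 genes most above 72 h were Dppa5a, H19 and 8 genes of ribosomal proteins. Dppa5a, an RNA-binding protein of pluripotent cells, was at 1913 FPKM against 568 FPKM. The ribosomal genes were all within 2-fold, such as Rpl13a at 3891 against 2669.7 FPKM. In the other direction the 10 included 3 histone genes, Yam1, Gm26917, Ftl1, Fth1, Rps28, Rplp1 and Actb. Ftl1 and Fth1, the ferritin chains that store iron, were at 4081 against 4862 FPKM and 1276 against 1869 FPKM, both within 2-fold.

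The medians of both sets were also taken at 24 h, the time point from which both conditions came. The 691 higher genes had a median of 3.52 FPKM at 24 h, 4.01 FPKM in the returned cells and 1.28 FPKM at 72 h. The 625 lower genes had a median of 1.37 FPKM at 24 h, 1.45 FPKM in the returned cells and 3.78 FPKM at 72 h. The returned and 72 h medians differ by the choice of the genes. The 24 h value took no part in it, and in both sets it lay nearer to that of the returned cells. This was not particular to 24 h. For the higher and lower sets, iPSCs in 2i/LIF had medians of 4.18 and 1.55 FPKM. Undifferentiated iPSCs re-seeded in serum/LIF without doxycycline had 5.61 and 1.48 FPKM. These medians do not mean that the returned cells were like 24 h cells as a whole. Of the genes compared, 25.5% were at least 2-fold apart between the returned cells and 24 h, 1930 higher (14.9%) and 1378 lower (10.6%). The smallest share against a withdrawal time point was the 10.3% at 72 h, followed by 10.4% at 60 h and 15.6% at 48 h.

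Against undifferentiated iPSCs re-seeded in the same medium for the same 48 h, 20.1% of genes were at least 2-fold apart, 1138 higher (8.72%) and 1485 lower (11.4%) in the returned cells. Naive genes were among those that stood lower. Zfp42 was at 62.9 FPKM in the returned cells and 246 FPKM in the re-seeded undifferentiated cells, Esrrb at 33.2 and 151 FPKM, Klf4 at 10.4 and 84.8 FPKM, Nanog at 50.1 and 120.3 FPKM, and Jam2, an adhesion molecule of the naive list, at 9.58 and 113 FPKM. Dnmt3b, in contrast, was at 195 and 59 FPKM, and Pou3f1 at 26.8 and 3.64 FPKM. The 5 naive genes named here thus lay between the re-seeded undifferentiated cells and the 72 h cells, but not every member of the list did. Dppa3 was above both in the returned cells, at 28.8 FPKM against 9.44 in the re-seeded undifferentiated cells, and Manba was below both, at 3.57 against 37 FPKM. The condition with the smallest share of genes apart was the 24 h return with doxycycline, at 6.27%, or 432 genes higher and 365 lower without doxycycline. That column also resolved steps nearly as fine as the returned one, 89.3 for a 2 kb gene at 1 FPKM, whereas the withdrawal columns had between 29.7 and 47.6, and the part of this in the shares was not tested. The re-seeded undifferentiated cells, with 20.1% of genes apart, had 100.6 steps. Fgf5 was at 0.498 FPKM and Esrrb at 66.5 FPKM with doxycycline.

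Cells returned to serum/LIF at 48 h and measured 48 h later were compared with 96 h of withdrawal as the matched time. This contrast shares no sample with the 24 h return. Its returned column resolved coarser steps than its withdrawal column, the reverse of the 24 h contrast. For a 2 kb gene, 1 FPKM equalled 31.2 steps after the 48 h return and 47.6 at 96 h. Genes listed at 0 numbered 4734 and 4112. The part of this in the differences between the returns was not tested. In the 48 h contrast 12763 genes were compared, 812 were at least 2-fold higher (6.36%) and 831 lower (6.51%), together 12.9%. Of the genes higher after return at 24 h, 254 were also higher after return at 48 h, 36.8% of the 691 and 31.3% of the 812. Of the lower genes 199 were shared, 31.8% of the 625 and 23.9% of the 831. The opposite call was made for 25 and 19 genes. On the log2 scale the naive list had a median of 1.52 for the later return and 2.10 for the earlier one, with 16 of 21 compared genes higher, and the LIF and Stat3 list 0.84 and 0.87. Cholesterol genes had a median of -0.79 with 6 of 25 lower, and fatty acid genes -0.61 against -0.66.

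Klf2 was at 17.2 FPKM after the 48 h return and 5.78 FPKM at 96 h, 2.97-fold apart, both far below the 90.9 FPKM of the 24 h return. Esrrb was at 8.31 against 3.07 FPKM, and Zfp42 at 18.1 against 7.44 FPKM, 2.43-fold apart where the 24 h return gave 4.32-fold. Pou5f1 was at 72.6 against 25.5 FPKM, 2.85-fold apart, although its level after the 48 h return was below that after the 24 h return, 213 FPKM. Socs3, by contrast, reached 21.3 FPKM against 7.70, near the level of the 24 h return. Fgf5 was not lower after the 48 h return, at 17.2 against 12.7 FPKM, while Otx2 was, at 13.1 against 33.7 FPKM.

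The trophoblast list differed most between the returns, with a median of 2.11 at 24 h and 0.21 at 48 h, where 5 of 16 compared genes were higher and 1 lower, beside 6.36% and 6.51% of all genes in that contrast. Rhox6 was at 11 against 14.1 FPKM there and H19 at 759 against 491 FPKM. The withdrawal cells of the later contrast had more of both transcripts than those at 72 h. Id1 was at 51.1 FPKM after the 48 h return and 80.9 FPKM at 96 h, and Id3 at 30.6 and 123 FPKM, so for these genes the 96 h cells were the higher. The neurectoderm list had a median of -0.90 at 48 h, with 8 of 18 lower and 2 higher, beside 6.51% and 6.36% of all genes, against -0.35 at 24 h, a value that was 0.01 with no minimum. Sox1 was at 0.207 against 13.3 FPKM. None of these differences between the returns was tested.

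**Figure D5:**
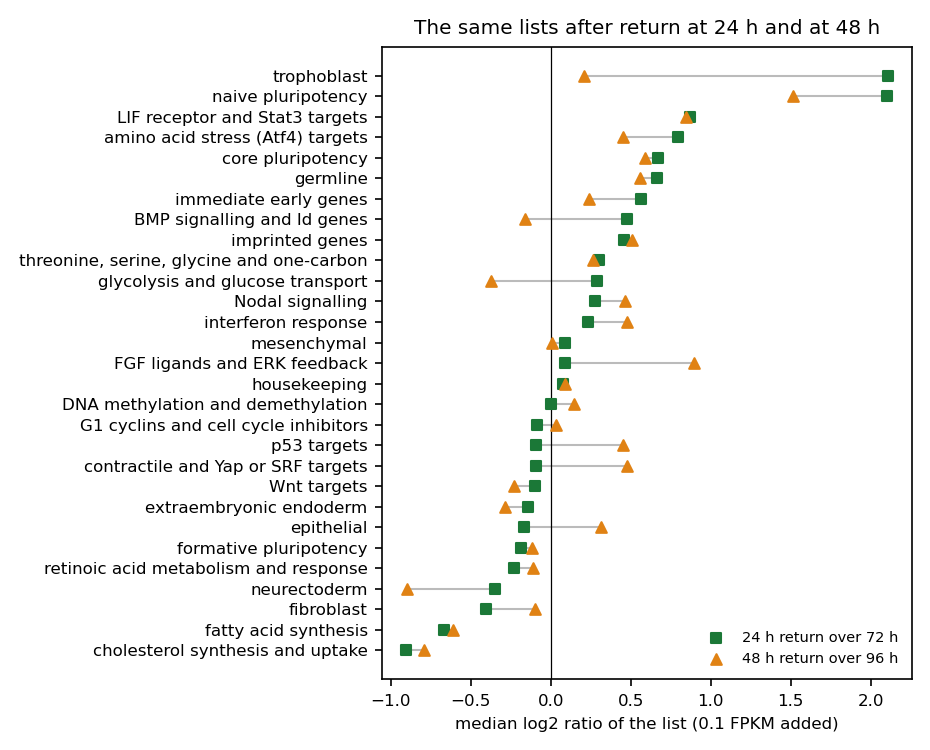
Median log2 ratio of each gene list (horizontal, 0.1 FPKM added) for the 24 h return over 72 h (green squares) and the 48 h return over 96 h (orange triangles), which share no sample. Naive pluripotency is positive in both, at 2.10 and 1.52, cholesterol synthesis and uptake negative in both, at -0.90 and -0.79, and the trophoblast list lies at 2.11 and 0.21.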

How the data were processed

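RNA was poly(A)-selected and sequenced by the authors, who aligned reads to mm10 with TopHat2 2.0.14 and quantified Gencode vM4 transcripts of 6 biotypes of at least 200 bp with Cufflinks 2.2.1 and Cuffdiff. The deposited table holds FPKM per gene for 15 conditions (the file calls them RPKM), each combining 2 replicates, and 5 columns of the authors' own calls between conditions, which were not used. How the libraries were normalised is not given in the sources used here. Values were compared as deposited with Python 3.11.15 and pandas 2.3.3. A call needed 1 FPKM in the higher value and a 2-fold ratio, and list medians used log2 ratios with 0.1 FPKM added over members that reached 1 FPKM in either condition. With 1 value per condition no statistical test was run.

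The members and the 33 gene lists (613 of 623 genes in the table) were chosen with earlier results of these data known. Genes were named from the lists, from the 15 largest and 15 smallest ratios over 10 FPKM, from the 10 largest differences each way, and where the 24 h and 48 h returns were 2-fold apart in opposite directions. Positions come from Gencode vM21 (GRCm38, 94.9% of symbols matched), and promoters from RefSeq. The 27 names altered to dates by a spreadsheet were not named, and some list genes are not reported here. Other minima, fold limits, added constants, scalings and comparators were tried.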

Additional observations from a re-analysis of the deposited data

Results flagged for a closer look

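Id3, a helix-loop-helix inhibitor induced by BMP signalling, went in opposite directions in the 2 returns. After return at 24 h it was 3.54-fold higher than at 72 h, at 48.9 against 13.8 FPKM, and after return at 48 h it was 4.02-fold lower than at 96 h, at 30.6 against 123 FPKM. The difference between the returns was not tested, since each condition has 1 combined value.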

How the results depend on the processing

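The table combines replicates, so no replicate could be left out and no spread is known. No paired analysis was possible because each condition has 1 combined column. The counts depended on the limits. With no minimum 3772 genes were higher and 1985 lower in the returned cells, of which 691 and 625 reached 1 FPKM. A minimum of 5 FPKM gave 306 and 266, at least 1 FPKM in both conditions 389 and 392, a 1.5-fold limit 1520 and 1592, a 4-fold limit 199 and 94, and 1 FPKM added to both values 383 and 288. With 96 h as the comparator the counts were 1139 and 1178. They stayed within 1.5 times with 0.1 FPKM added (645 and 581), median-ratio scaling (689 and 630), upper-quartile scaling (700 and 612), 60 h as the comparator (815 and 514) and without histone cluster genes (690 and 581), the last chosen after seeing the data. The naive median was 1.62 with 1 FPKM added and 3.06 against 96 h. Of the 33 list medians, 20 moved by over 0.25 on the log2 scale against 96 h, 16 against 60 h, 7 with no minimum and 5 with 1 FPKM added, and none with either scaling. Against 96 h the BMP median turned from 0.48 to -0.51, the trophoblast median fell from 2.11 to 1.04, the Atf4 median from 0.80 to 0.39 and the cholesterol median went from -0.90 to -0.44. Against 60 h the formative median went from -0.19 to -0.74, the extraembryonic endoderm median from -0.14 to 0.92 and the fibroblast median from -0.41 to 0.08. With no minimum the trophoblast median was 1.71, the primitive streak median 0.60 in place of 1.17 and the neurectoderm median 0.01 in place of -0.35. Of 90 named genes, 4 reversed against 96 h, Id3 at -1.33, Anxa3 at -0.75, Krt7 at -0.13 and Stc2 at -0.16 on the log2 scale, and Pim2 reversed against 60 h at -0.33, where the cause was not tested. A further 29 named genes came under 2-fold against 96 h and 17 against 60 h. Against 96 h they included Id1 at 0.15 in place of 3.91, Trib3 at 0.75 in place of 2.25, and the cholesterol genes Hmgcs1 at -0.82, Idi1 at -0.36, Lss at -0.24, Insig1 at -0.37 and Stard4 at -0.89. Scaling by median ratios left 89 of the 90 past their limit and the upper quartile all 90.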

Other observations

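Some genes of the lists that belong to other groups showed values not described above. Lmna, the gene for A-type lamins, which pluripotent cells express weakly, was at 29.9 FPKM in the returned cells and 14.6 FPKM at 72 h. S100a6, a calcium-binding protein, was at 42.8 against 13.2 FPKM, and at 140.4 FPKM at 24 h. Anxa3, a phospholipid-binding annexin, was at 23.5 against 10.5 FPKM. Cyp26a1, the enzyme that degrades retinoic acid, was at 0.625 against 2.82 FPKM and reached 17.6 FPKM at 96 h. Each has 1 value per condition and no replicate spread.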
